A study of Mus musculus with 46 samples.

Results

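The genes described here carried the histone variant H3.3 at the start of reprogramming and had no H3.3 peak from day 9 on in the libraries of the successful route to iPSCs. They were 150 of the 22380 protein-coding genes in the mm9 annotation (0.670%). A gene was called bound in a library when the midpoint of at least 1 deposited H3.3 peak lay between 1 kb before the gene start and 1 kb after the gene end. The 150 genes were bound in D0, D3 and D6T-, and not bound in D9T-, D12S+, D16S+ and iPSCs. The genes were thus chosen by the H3.3 peaks of these 7 libraries, whose values are given as a description and without a test. The other 9 H3.3 libraries and the 14 libraries of histone marks played no part in the choice.

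H3.3 ChIP-Seq was made from mouse embryonic fibroblasts (MEFs) taken from mid-gestation embryos, with an IRES-EGFP cassette behind the stop codon of Oct4. The cells were infected with pMXs retroviruses for Oct4, Sox2, Klf4 and c-Myc (OSKM) and were collected uninfected (D0), on day 3 (D3), on days 6 and 9 after sorting for the fibroblast antigen Thy-1 (D6T-, D9T- and the unsuccessful fractions D6T+, D9T+), on days 12 and 16 after sorting for the stem cell antigen SSEA-1 (D12S+, D16S+ and the unsuccessful fractions D12S-, D16S-), and as fully reprogrammed iPSCs. The embryonic stem cell line ESD3 served as a pluripotent reference, and a second series was converted with Scl, Lmo2, Runx1 and Bmi1 toward hematopoietic cells (MEF, D4, and the final cKit+ and cKit- fractions). H3K4me3 and H3K36me3 were profiled in the 7 libraries on the way to iPSCs. With 1 library for every group, there was no replicate spread to test a difference against. The intervals below are 95% Wilson intervals over genes, which cover counting error only.

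H3.3 is a histone H3 variant that is deposited outside of DNA replication, by HIRA at active and poised genes and by ATRX and DAXX at repeats. It accumulates where nucleosomes turn over, at promoters, enhancers and transcribed gene bodies. H3K4me3 marks the starts of active and poised genes, and H3K36me3 is laid down along gene bodies by elongating polymerase.

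The cells carried the markers of their labels in part. In D0, an H3.3 peak was found on all 10 fibroblast markers of the list (among them Thy1, Col1a1, Prrx1 and Twist2), against 3 of 10 in iPSCs and 0 of 10 in ESD3, and all 10 pluripotency markers (among them Nanog, Pou5f1 and Esrrb) had one in iPSCs against 2 of 10 in D0. Of 4 hematopoietic markers, 1 was bound in cKit+ and 2 in cKit-. None of the markers of any list (0) was among the 150 genes. The 7 H3.3 libraries of the selection held 18.8 to 41.2 M tags and 34062 to 89727 peaks, and the D16S+ library was the shallowest. The share of all genes bound was 59.0% at D0, 55.2% at D3 and 57.3% for D6T-. It was 55.4% for D9T-, 48.1% for D12S+, 41.5% for D16S+ and 59.1% for iPSCs. The share of tags in peaks was 19.1% in D0, 11.3% in D3 and 19.3% in D6T-. In D9T-, D12S+, D16S+ and iPSCs that share was 14.8, 6.93, 4.88 and 14.0%. A gene without a peak is one where no region passed the peak caller, and not one shown to be free of H3.3.

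Of the 10260 genes bound in D0, D3 and D6T-, 729 (7.11%) had no peak in D9T-. Most of these were bound again in a later library: 579 regained a peak in D12S+, D16S+ or iPSCs, and the 150 genes (20.6% of the 729) did not. The group is compared below with the 338 genes that had the same history but kept a D9T- peak and were first without one in D12S+ (lost at D12), and with the 6273 genes bound in all 7 libraries (kept). The genes were of ordinary to large size, with a median length of 34.7 kb (quartiles 9.98 and 82.6 kb) against 31.1 kb for kept genes, 43.2 kb for genes lost at D12 and 15.4 kb for all genes. The longest was Dgkb, a diacylglycerol kinase gene of 753 kb, and the shortest was the gene model Gm17379 of 0.207 kb. 141 genes lay on autosomes and 9 on the X chromosome, and 24 were unnamed gene models (16.0%, against 16.3% of all genes).

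The H3.3 peaks on these genes were sparse in D0, D3 and D6T-. The median number of peaks per gene was 1 in D0, D3 and D6T- alike, against 4 for kept genes in each library, and 81, 88 and 107 of the 150 genes had a single peak in D0, D3 and D6T-. Scores below are the tags in a gene's peaks per 10 M tags of the library, summed over its peaks. The median score was 18.7 in D0, 13.5 in D3 and 9.10 in D6T-, with ranges of 5.75 to 509, 5.61 to 182 and 5.39 to 188. Kept genes had medians of 99.5, 69.3 and 126 in the same libraries, and genes lost at D12 had 33.5, 20.4 and 28.2. The order of the 3 libraries therefore differed between groups: D6T- was the lowest for the genes lost at D9 and the highest for kept genes. The groups were chosen by the presence or absence of a peak in D9T- and later libraries. This order is a description and was not tested.

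**Figure D1:**
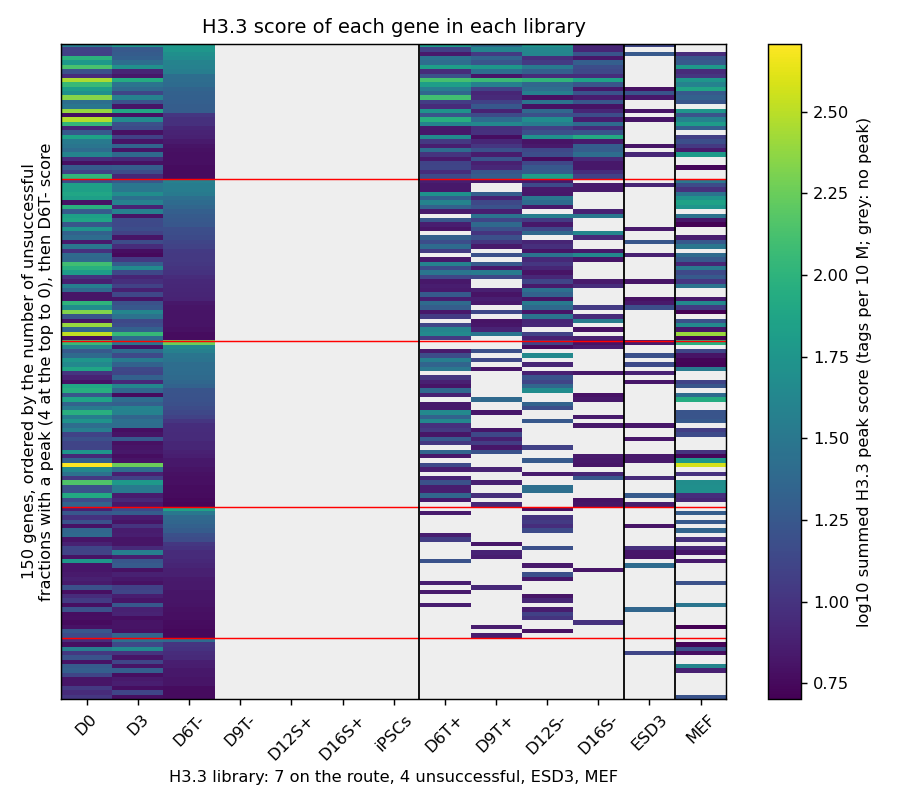
Summed H3.3 score (log10 of tags per 10 M) of the 150 genes (rows) in 13 libraries (columns), with grey for no peak. Red lines separate the genes with a peak in 4, 3, 2, 1 and 0 of the unsuccessful fractions (31, 37, 38, 30 and 14 genes), and the 4 grey columns from D9T- to iPSCs are fixed by the selection.

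Many of the genes were close to the limit of detection in D6T-. The peak caller needed 18 tags in the D6T- library and 19 in the D9T- library, which is 6.07 and 5.87 tags per 10 M. The strongest D6T- peak was listed with a score under the limit of its library in 17 of the 150 genes. The strongest D6T- peak of a gene had a median score of 8.60, it was under 1.5 times the D9T- limit in 78 genes (52.0%) and at 2 or more times the limit in 45 genes (30.0%). For kept genes these shares were 3.48% and 93.4%, and for genes lost at D12 they were 19.5% and 66.3%. The genes with the lowest D6T- scores were Anxa13, an annexin gene (5.39), Abra, a regulator of striated muscle actin signalling (5.56), and Fuca2, a secreted fucosidase gene (5.56). Just outside of the selection were genes with a weak D9T- peak and none later, such as Arg2, the mitochondrial arginase (11.3 in D6T- and 5.25 in D9T-), Itgb1bp2, a muscle integrin-binding protein (15.3 and 5.41), and Itgb2, the leukocyte integrin beta chain (33.2 and 5.41). In all, 170 of the 338 genes lost at D12 had exactly 1 D9T- peak.

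**Figure D2:**
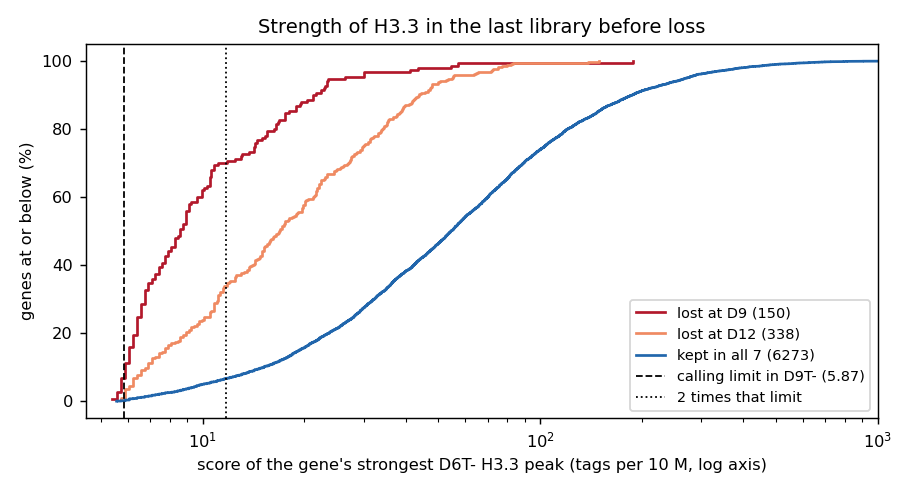
Cumulative share of genes (%) against the score of the gene's strongest D6T- H3.3 peak (tags per 10 M, log axis) for 150 genes lost at D9, 338 lost at D12 and 6273 kept genes. The dashed and dotted lines mark the calling limit in D9T- (5.87) and 2 times that limit, and 30.0% of the genes lost at D9 lie at or beyond the dotted line against 93.4% of kept genes.

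The peaks of the 3 early libraries often lay at different places of the same gene. A D6T- peak overlapped both a D0 and a D3 peak by at least 1 bp in 45 of the 150 genes (30.0%), against 46.7% of genes lost at D12 and 84.6% of kept genes. A D6T- peak overlapped a D0 peak in 67 genes and a D3 peak in 75. Counted per gene, with the 210 distinct peaks giving 213 because of shared ones, 141 D6T- peaks (66.2%) were placed in introns, 30 (14.1%) in promoters (from 1000 bp before to 100 bp after a start site), 28 (13.1%) in exons and 14 (6.57%) around gene ends. In kept genes, 80.7% of D6T- peaks were intronic and 7.83% were at promoters. Neighbouring genes can share a peak: in 27 of the 150 genes every D6T- peak also fell into the window of another protein-coding gene, and 2 pairs of the 150 shared theirs, the retinal genes Mfrp and C1qtnf5 (15.8 in D0, 33.4 in D3 and 5.90 in D6T- for both) and Tepp and the zinc-finger gene Zfp319 (69.4, 31.2 and 35.9 for both).

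The membership of the list depended on how peaks were counted. 29 of the 150 genes were touched by a peak of at least 1 of the 4 later libraries whose midpoint lay outside the window. They were 19 for D9T-, 8 for D12S+, 7 for D16S+ and 10 for iPSCs, with some genes counted in more than 1 library. A D9T- peak midpoint lay 1 to 5 kb outside the gene for 41 genes. When any base of a peak could place it in a gene, 137 genes were lost at D9, and the 121 shared genes were 88.3% of these and 80.7% of the 150. Without the flanks, 114 genes were shared (63.3% of 180 and 76.0% of the 150), and with flanks of 5 kb, 95 were (61.7% of 154 and 63.3% of the 150). With the same number of top-scoring peaks in each library, 17 genes were shared (17.0% of 100 and 11.3% of the 150), and with peaks at or above the median score of their library, 18 were (8.61% of 209 and 12.0% of the 150). A fold over input of at least 4 shared 65 genes (15.1% of 430 and 43.3% of the 150). 5 genes were selected under all 6 settings of window and peaks: Glis3, a Krüppel-like zinc-finger factor of pancreas and kidney, Gria1, an AMPA-type glutamate receptor subunit, Ptprq, a phosphatidylinositol phosphatase of hair cells, Tnfrsf11a, the receptor RANK, and Wdfy1, an endosomal adaptor.

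27 genes had both a strong D6T- peak (2 or more times the D9T- limit) and a D6T- peak overlapping D0 and D3 peaks, and 9 of these were selected under all 3 other window rules: Glis3, Gria1, Wdfy1, Herc6, Kcnd2, Mrc1, Mrpl44, Slc27a6 and Zfp319. Genome sequence of mm9 under the D6T- peak is shown for 3 of them as examples of the places that carried H3.3 in D0, D3 and D6T- and had no peak from D9T- on. Each is a window of 300 bp centred on an intronic D6T- peak, on the strand of the gene, with capitals for TGANTCA, the site of AP-1 factors such as Fos and Jun. They were picked after their values were seen, as the 3 highest-scoring D6T- windows that hold the motif under a peak overlapping D0 and D3 peaks. The Wdfy1 window is chr1:79756196-79756495 (minus strand), in a peak that scored 35.2 in D0, 23.8 in D3 and 19.6 in D6T-.
Wdfy1: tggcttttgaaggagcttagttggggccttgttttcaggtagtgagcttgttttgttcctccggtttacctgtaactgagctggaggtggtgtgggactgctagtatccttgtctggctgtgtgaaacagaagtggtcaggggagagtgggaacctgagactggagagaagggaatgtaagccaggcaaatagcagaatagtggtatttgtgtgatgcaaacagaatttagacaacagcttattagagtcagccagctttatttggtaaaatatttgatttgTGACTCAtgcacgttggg
The Herc6 window is chr6:57591520-57591819 (plus strand), in a peak that scored 15.0 in D6T-, and the peaks overlapping it scored 6.31 in D0, at its edge and outside the window, and 12.6 in D3.
Herc6: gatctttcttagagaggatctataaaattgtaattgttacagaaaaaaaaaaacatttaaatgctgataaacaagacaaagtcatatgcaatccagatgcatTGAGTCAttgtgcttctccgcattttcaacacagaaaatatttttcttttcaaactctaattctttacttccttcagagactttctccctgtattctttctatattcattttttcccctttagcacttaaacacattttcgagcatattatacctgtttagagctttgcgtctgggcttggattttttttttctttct
The Gria1 window is chr11:56976001-56976300 (plus strand), in a peak that scored 14.3 in D6T-, and the peaks overlapping it scored 23.2 in D0 and 15.9 in D3, the latter outside the window.
Gria1: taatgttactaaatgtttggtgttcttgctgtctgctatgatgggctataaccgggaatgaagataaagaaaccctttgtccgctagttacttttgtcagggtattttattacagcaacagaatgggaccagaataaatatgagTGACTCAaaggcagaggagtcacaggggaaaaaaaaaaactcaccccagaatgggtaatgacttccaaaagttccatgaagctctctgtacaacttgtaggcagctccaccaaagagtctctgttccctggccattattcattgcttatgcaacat
Peaks at the same place were also listed in D16S- for Wdfy1 (8.29) and Herc6 (13.2), and in D12S- for Gria1 (11.3), so that each of the 3 places had H3.3 in an unsuccessful fraction.

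Over the 210 windows under D6T- peaks of the 150 genes, 32 (15.2%, interval 11 to 20.7%) held TGANTCA on either strand, against 11.1% of the windows under all D6T- peaks and 9.87% of those in kept genes. The interval includes the share over all peaks. ATGCAAAT, the octamer read by Oct4 and other POU factors, was held by 8 windows (3.81%, 1.94 to 7.34%), searched on both strands, against 2.07% of all windows. The windows had a median of 3 CpGs and 44.3% GC, and all D6T- peaks had 3 CpGs and 44.7% GC. A match is a run of letters and was not tested as a binding site.

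By function, the genes were a mixed group. 58 of them (38.7%) fell into at least 1 of the functional families that were matched by gene name, against 35.6% of all genes. No gene of the pluripotency, epithelial, neural, muscle, endothelial, hematopoietic, AP-1 or housekeeping lists was among them (0). Each of these lists holds only 0.0894% (AP-1) to 0.223% (pluripotency) of all genes, so a count of 0 is close to these shares. The fibroblast and mesenchymal list of 73 genes had 1 (0.667%, against 0.326% of all genes). The families with the most members were immune receptors, cytokines and surface antigens with 8 genes (5.33%, against 2.57% of all genes and 1.29% of the genes bound in D0, D3 and D6T-), ion channels with 7 (4.67%, against 1.17% and 0.867%), extracellular matrix with 5 (3.33%, against 0.679% and 0.906%), solute carriers with 5 (3.33%, against 1.65% of all genes) and lipid, steroid and xenobiotic enzymes with 5 (3.33%, against 2.21%). The count was 0 for the MAP kinase cascade (0.679% of all genes), small GTPases (1.58%), RNA processing (1.34%) and growth factors with their receptor tyrosine kinases (0.559%). These are counts and no enrichment was tested.

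Secreted signals among the genes included a cytokine, a bone morphogenetic protein, Wnt amplifiers and a neuropeptide. Csf3, the granulocyte colony-stimulating factor, scored 43.8 in D0, 21.3 in D3 and 26.4 in D6T-, and it was bound in D6T+ (22.1), D12S- (8.05) and ESD3 (14.1). Bmp5, a bone morphogenetic protein, scored 20.2, 19.9 and 6.74 in D0, D3 and D6T- and had no peak in any of the 4 unsuccessful fractions. Rspo2 and Rspo3 encode R-spondins, secreted amplifiers of Wnt signalling. Rspo2 scored 13.2, 6.00 and 6.74 in D0, D3 and D6T- and had no peak in the unsuccessful fractions, ESD3 or MEF. Rspo3 was strongest in D6T- (6.31, 8.52 and 23.6) and was listed in D6T+ (7.68) and D12S- (13.0). The neuropeptide gene Qrfp and its receptor gene Qrfpr were both among the 150 genes, with D6T- scores of 25.1 and 7.42.

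Among the receptors were 2 with H3.3 in all 4 unsuccessful fractions. Osmr, the oncostatin M receptor, scored 284 in D0, 86.5 in D3 and 26.0 in D6T-, and it was bound in all 4 unsuccessful fractions (131 for D6T+, 118 for D9T+, 103 for D12S- and 71.4 for D16S-). Its unsuccessful fractions thus stood above its D6T- value on the successful route. Tnfrsf11a, which encodes RANK, scored 58.8, 26.9 and 39.8 in D0, D3 and D6T- and 26.1, 17.1, 11.2 and 20.3 in the same 4 fractions. Htr2a, a serotonin receptor, scored 76.7, 48.4 and 33.0 and was listed in D6T+ (53.4), D12S- (6.77) and D9T+ but not in D16S-. Il18rap, the accessory chain of the interleukin-18 receptor, scored 43.7, 25.5 and 6.40 and was listed in D6T+ (7.45) and D9T+ (8.02).

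Several genes of the matrix and its turnover had higher scores in D0 than in D6T-, and some of the D6T- scores were near the limit. Wisp1, a matricellular Wnt target and the only gene of the fibroblast and mesenchymal list, had the highest D0 score of the 150 genes at 509, with 182 in D3 and 6.74 in D6T-. In the MEF library of the second series it scored 377. Adamtsl3, an ADAMTS-like matrix protein, scored 332, 111 and 5.90 in D0, D3 and D6T- and 252 in MEF. Pappa2, a secreted protease of insulin-like growth factor binding proteins, scored 301, 46.5 and 9.61, and Antxr2, a collagen-binding receptor of anthrax toxin, scored 214, 41.4 and 6.40. Plau, the urokinase plasminogen activator, scored 219, 38.3 and 20.7, and D6T+ held 125. Collagen XIV (Col14a1) scored 142, 61.5 and 6.07, and tenascin-X (Tnxb) scored 107, 15.7 and 9.61. Svep1, a large adhesion protein, scored 73.8, 25.9 and 16.2. These genes were named after their values were seen, and others of the matrix and protease families had another order. Aspn, the proteoglycan asporin, scored 12.6, 37.1 and 8.93, and the metalloproteinase genes Adam33 (18.9, 6.39 and 7.25) and Adam11 (54.3, 15.1 and 15.2) were lowest in D3. Of the 5 genes in the extracellular matrix family, 5 had a peak in MEF and 1 in ESD3, and the unsuccessful fractions held 4 (D6T+), 3 (D9T+), 1 (D12S-) and 3 (D16S-). In the same order, 62.7, 24.0, 67.3, 53.3, 64.7 and 42.0% of the 150 genes were bound. For all genes these shares were 51.3, 50.4, 50.6, 52.2, 60.1 and 54.1%.

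Ion channels were represented by 3 AMPA receptor subunits, a glycine receptor subunit, a potassium channel and 2 chloride channels. Gria1 scored 68.7, 27.7 and 27.3 in D0, D3 and D6T- and was listed in D6T+ (20.2), D9T+ (8.02) and D12S- (31.6). Gria2 (6.49, 7.35 and 6.57) and Gria3 (6.68, 6.19 and 7.58) were near the calling limit in each of the 3 libraries, each with 1 peak. Gria2 had no peak in any unsuccessful fraction, and Gria3 had one in D16S- (6.59). Clcn1, the chloride channel of skeletal muscle, scored 123, 20.1 and 10.6, and Kcnd2, a voltage-gated potassium channel, scored 17.6, 19.6 and 32.2. All 7 channel genes had H3K4me3 in D0, 6 had it in D9T- and 5 in iPSCs, where 68.6, 67.1 and 67.8% of all genes had it. ESD3 had H3.3 on 0 of the 7, against 24.0% of the 150 genes and 50.4% of all genes.

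The 10 highest D6T- scores belonged to genes of varied roles. The gene model 2310014L17Rik scored 117 in D0, 30.2 in D3 and 188 in D6T-, and 13.0 in D12S-, 6.34 in D16S- and 6.94 in ESD3, with no peak in D6T+ or D9T+. Rnf219, a RING finger protein gene, scored 7.79, 14.3 and 72.2 in D0, D3 and D6T-. Its 3 D6T- peaks included one across the gene end, with 54.3 of the 72.2. Isy1, a splicing factor, scored 34.9, 57.4 and 59.6 and was bound in all 4 unsuccessful fractions (62.2, 25.4, 54.5 and 8.05) and in ESD3 (13.4). Nop10, a subunit of H/ACA ribonucleoproteins, scored 12.6, 18.4 and 57.0, and its D9T+ and D12S- scores were 40.5 and 42.1. Map6d1, a microtubule-associated protein, scored 12.2, 19.3 and 49.7 and was listed in all 4 unsuccessful fractions (6.98, 11.1, 41.1 and 16.6) and in ESD3 (18.3). Ptprq scored 98.1, 20.9 and 46.9, and Glis3 scored 136, 51.7 and 38.1. The gene models Gm17379 (41.2, 6.39 and 43.5) and Gm765 (14.5, 18.2 and 38.1) completed the 10 highest with Tnfrsf11a. Rnf219, Nop10, Map6d1, Isy1 and 2310014L17Rik had more H3.3 in D6T- than in D0, which is a value they were named for.

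In the unsuccessful fractions, which the selection did not use, many of the genes still had H3.3. D6T+ had a peak on 101 genes (67.3%, 59.5 to 74.3%), where 50.6% of all genes were bound. D9T+ had one on 80 genes (53.3%, 45.4 to 61.1%), against 52.2% of all genes. D12S- had one on 97 genes (64.7%, 56.7 to 71.9%), against 60.1%, and D16S- on 63 genes (42.0%, 34.4 to 50.0%), against 54.1%. The interval lay above the share of all genes in D6T+ and below it in D16S-, and included it in D9T+ and D12S-. All genes include those never bound early. Of the 10260 genes bound in D0, D3 and D6T-, 90.7% (D6T+), 91.3% (D9T+), 96.6% (D12S-) and 91.3% (D16S-) were bound, above each interval. Genes lost at D12 were bound at 81.1, 75.1, 93.5 and 69.8% in the same order, and kept genes at 95.2, 96.8, 98.8 and 97.5%. The 4 shares of the genes lost at D9 were the lowest of the 3 groups in every unsuccessful fraction. On the day of the loss, D9T+ held a peak in 80 genes that had none in D9T-. Of all 729 genes bound in D0, D3 and D6T- and not in D9T-, 62.8% were bound in D9T+.

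The peaks in the unsuccessful fractions were again low. Over genes with a peak, the median scores of the genes lost at D9 were 12.8, 10.2, 13.0 and 8.29 (D6T+, D9T+, D12S-, D16S-), against 67.5, 74.1, 141 and 78.0 for kept genes. In the same order they overlapped a D6T- peak in 49 of 101, 34 of 80, 61 of 97 and 27 of 63 genes. D12S- was thus the fraction with the largest share at the former place (62.9%), and for kept genes the shares were between 92.2 and 97.0%. The D12S- list also covered the most sequence of the 4 (141 Mb, against 69.9 Mb for D6T+, 77.6 Mb for D9T+ and 77.3 Mb for D16S-), and the part of peak coverage in these shares was not tested.

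31 genes were bound in all 4 unsuccessful fractions, 37 in 3, 38 in 2, 30 in 1 and 14 in none. The share bound in all 4 was 20.7%, against 40.1% of all genes, 50.9% of genes lost at D12 and 90.7% of kept genes. The share bound in none was 9.33%, against 33.4% of all genes, 1.48% of genes lost at D12 and 0.0159% of kept genes. Besides Osmr, Tnfrsf11a, Isy1 and Map6d1, the genes bound in all 4 included Dnahc3, an axonemal dynein heavy chain, with 47.0 for D6T+, 6.01 for D9T+, 51.7 for D12S- and 83.9 for D16S-. Its D16S- score was above its 72.1, 12.2 and 7.75 of D0, D3 and D6T-. Tnxb scored 40.3, 43.8, 35.1 and 25.4 in the 4 fractions, and Lgals3bp, a secreted galectin-binding protein, scored 11.6, 12.2, 29.8 and 17.3. Vsnl1, a neuronal calcium sensor, was listed in all 4 with 7.45, 10.5 and 6.95 in the first 3. The gene model 1700011F14Rik scored 10.0, 7.12, 15.0 and 26.1. In these genes H3.3 was listed in each of the fractions sorted as unsuccessful.

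The 14 genes without a peak in any unsuccessful fraction were led by Ppp1r1c, an inhibitor subunit of protein phosphatase 1 (8.90, 27.1 and 25.2 in D0, D3 and D6T-), Hs6st2, a heparan sulfate sulfotransferase (5.94, 13.7 and 10.3), the gene models 1700034J05Rik (35.8, 45.3 and 9.94) and 4930404A10Rik (10.6, 10.1 and 9.10), Ms4a4b, a T cell membrane protein (16.1, 6.58 and 8.76), and Diap2, a formin (6.31, 13.3 and 7.42). Of these 6, only 1700034J05Rik had overlapping peaks in all 3 early libraries. Hs6st2 and Diap2 had H3K4me3 in D0 (135 and 101), in D9T- (44.7 and 82.0) and in iPSCs (22.9 and 43.2) although no H3.3 peak was listed from D9T- on. 13 of the 14 had no peak in ESD3 either.

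**Figure D3:**
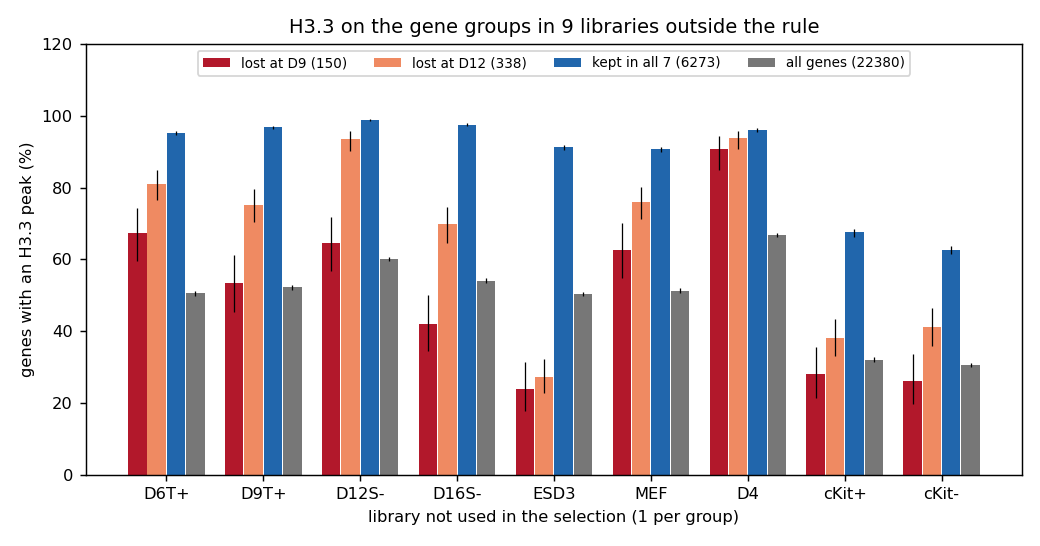
Share of genes with an H3.3 peak (%, error bars: 95% Wilson interval) in the 9 H3.3 libraries that did not enter the selection, for the 150 genes lost at D9, 338 lost at D12, 6273 kept genes and all 22380 genes. The genes lost at D9 range from 24.0% in ESD3 to 90.7% in D4 and are below the genes lost at D12 in each library.

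The other pluripotent library, ESD3, had no peak on most of the genes. H3.3 was listed in ESD3 at 36 of the 150 genes (24.0%, 17.9 to 31.4%), where 50.4% of all genes, 27.2% of genes lost at D12 and 91.2% of kept genes were bound. Of all genes unbound in iPSCs, 11.7% were bound in ESD3. The peaks were low, with a median score of 7.06, and 15 of the 36 genes had one overlapping a D6T- peak. Sds, a serine dehydratase gene, had the highest ESD3 score (25.2), and Chst10, a sulfotransferase (22.9), and Map6d1 (18.3) were also among the highest. Myom2, the myomesin of the sarcomeric M band (17.3), Hsd11b2, which inactivates glucocorticoids (15.5), and Ccdc146, a coiled-coil protein (15.3), had lower scores. Chst10 and Sds were without a peak in D6T+, D9T+ and D16S-.

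The fibroblast library of the second conversion gave another measurement of the starting cells. 94 genes (62.7%, 54.7 to 70.0%) were bound in MEF, against 51.3% of all genes, 76.0% of genes lost at D12 and 90.7% of kept genes, so 56 genes bound in D0 had no peak in this library. On day 4 of the conversion toward blood 136 genes (90.7%, 84.9 to 94.4%) were bound, against 66.7% of all genes, in the library with the widest peak coverage of all (267 Mb). In the final fractions 28.0% (21.4 to 35.7%) were bound in cKit+ against 32.0% of all genes, and 26.0% (19.6 to 33.6%) in cKit- against 30.5%, with both intervals including the share of all genes. Coverage was 17.7 Mb in cKit+ and 17.8 Mb in cKit-, and its part in the low shares was not tested.

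H3K4me3 was found on these genes about as often as on all genes in D6T- and D9T-, the libraries before and after the loss of H3.3. It was less frequent than on the 10260 genes bound in D0, D3 and D6T-. Of those, 96.3% had the mark in D0, 95.8% in D6T- and 95.6% in D9T-. In D9T-, where no gene had an H3.3 peak, 102 (68.0%, 60.2 to 74.9%) had an H3K4me3 peak, against 103 (68.7%) in D6T-, and 92 genes had one in both. The background over all genes was 67.9% in D6T- and 67.1% in D9T-. The share was 78.7% at D0 and 70.0% at D3, against 68.6 and 66.9% of all genes, and 63.3% for D12S+, 34.0% for D16S+ and 63.3% for iPSCs, against 64.9, 50.9 and 67.8%. Of the 118 genes with H3K4me3 in D0, 89 (75.4%) had it in iPSCs, against 93.5% over all genes, 85.1% of genes lost at D12 and 98.8% of kept genes. The mark was present in iPSCs and absent in D0 for 6 of the 150 genes, against 826 of all 22380 genes. The D16S+ library of this mark had 3.71% of its tags in peaks, against 9.27 to 34.8% in the other 6.

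The level of H3K4me3 on these genes was lower than on kept genes throughout. Over genes with a peak, the median summed score was 115 in D0, 65.4 in D9T- and 27.1 in iPSCs. The median over all genes was 174, 137 and 65.0 and over kept genes 243, 198 and 95.3, so the later libraries were lower in every group. 45 genes (30.0%, against 47.1% of all genes) had the mark in all 7 libraries and 14 (9.33%, against 25.3%) in none. Of the 338 genes lost at D12, 134 had it in all 7 and 23 in none, and of the 6273 kept genes 5232 and 22. Those with the highest iPSC scores in the first class were Wdfy1 (365 in D0, 253 in D9T- and 97.1 in iPSCs), Mrpl21, a mitochondrial ribosomal protein (210, 184 and 86.9), Kcnd2 (142, 84.2 and 77.0), Dffb, the caspase-activated nuclease (262, 169 and 74.0), Isy1 (134, 182 and 65.6) and the gene model A930005H10Rik (182, 212 and 61.5). In these genes H3K4me3 was listed in iPSCs, where H3.3 was not. In ESD3, Wdfy1 (6.48), Mrpl21 (6.71) and Isy1 (13.4) did have an H3.3 peak.

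8 genes followed the opposite course and had H3K4me3 from D0 to D9T- but neither in D16S+ nor in iPSCs. The same count was not taken over all genes. Htr2a scored 246, 194, 292, 122 and 18.6 from D0 to D12S+. Wisp1 scored 235, 122, 42.5, 17.0 and 9.97 in the same libraries. Lrrtm3, a synaptic adhesion protein, scored 191, 111, 156, 88.8 and 18.4, and Herc6, an interferon-induced ligase, scored 139, 69.4, 111, 99.5 and 24.6. Slc27a6, a fatty acid transporter (63.8, 25.1, 37.5, 26.3 and 9.22), and Gria1 (61.8, 13.7, 19.9, 8.49 and no peak) were lower. At Htr2a, Lrrtm3 and Herc6 the H3K4me3 scores in D9T- were between 88.8 and 122 in the library that first lacked H3.3, against 17.0 at Wisp1.

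H3K36me3, the mark of transcribed gene bodies, was found on 71 genes in D0 (47.3%, 39.5 to 55.3%), against 47.1% of all genes and 85.4% of kept genes. It was listed on 66 genes at D3 (44.0%, all genes 43.4%), 33 for D6T- (22.0%, 37.7%) and 52 for D9T- (34.7%, 46.9%). From day 12 the count was 12 for D12S+ (8.0%, 23.3%), 13 for D16S+ (8.67%, 25.4%) and 11 for iPSCs (7.33%, 4.14 to 12.7%, against 34.2%). From D6T- on each interval lay below the share of all genes. Among the 10260 genes bound by H3.3 in D0, D3 and D6T-, 80.3% had the mark in D0, 68.5% in D6T- and 61.6% in iPSCs. Of the 71 genes with the mark in D0, 7 (9.86%) had it in iPSCs, against 64.2% over all genes, 22.9% of genes lost at D12 and 79.2% of kept genes. In D0 the median summed score of these 71 genes was 75.9, against 158 over all genes with the mark, and the late libraries of this mark had 1.07 to 2.88% of their tags in peaks against 7.5 to 42.4% before. The part of this in the late shares was not tested.

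51 genes had H3K36me3 in D0 and in none of D12S+, D16S+ and iPSCs, a count that was not taken over all genes. Svep1 had the highest D0 score (2605), with 581 in D3 and no peak from D6T- on. Gria3 scored 536 in D0, 222 in D3 and 119 in D9T-, and Wisp1 scored 528 and 325 in D0 and D3 and had no peak later. The protocadherin genes Pcdh18 (304 in D0, 116 in D3 and 63.2 in D9T-) and Pcdh19 (271, 24.0 and 7.82), which encode neuronal and mesenchymal adhesion proteins, and Il18rap (246 in D0 and 10.7 in D3) followed. Osmr, the gene with the second highest D0 score of this mark at 2047, still scored 603 in D9T- and 20.3 in D12S+. For Svep1 and Wisp1 the mark was last listed in D3, and for Gria3, Pcdh18, Pcdh19 and Osmr it was still listed in D9T-. H3.3 was last listed in D6T- for Svep1 and Wisp1, and the Wisp1 score of 6.74 was near the limit of 6.07. The D6T- library of H3K36me3 had 7.5% of its tags in peaks, against 14.1% in D3 and 42.4% in D9T-. Gria3 and Pcdh19 had no H3K36me3 peak in D6T- but were listed again in D9T-. Whether Svep1 and Wisp1 lost H3K36me3 before H3.3 was not tested.

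A minority of the genes had an H3K36me3 peak in iPSCs, where no H3.3 peak was listed. Isy1 had the highest iPSC H3K36me3 score (43.5, with 424 in D0 and 701 in D9T-), followed by Prmt10, an arginine methyltransferase (12.8, 445 and 762), Mrpl44, a mitochondrial ribosomal protein (9.06, 125 and 178), Fuca2 (7.83, 48.2 and 18.1), Cd46, a complement regulator (7.21, 10.4 and 6.25), and the gene model Gm10447 (7.0, with no peak in D0 or D9T-). The calling limit of the iPSC H3K36me3 library was 6.59 tags per 10 M. Apart from Isy1 and Prmt10, the genes named here had 1 peak each in it, with scores of 9.06 or lower. Whether these genes were transcribed in iPSCs was not tested. Both marks were present on 59 genes in D0, 42 in D9T- and 7 in iPSCs. H3K4me3 alone was found on 59, 60 and 88 genes, H3K36me3 alone on 12, 10 and 4, and neither mark on 20, 38 and 51. Over all genes, both marks were on 44.8, 44.6 and 33.1%, and H3K4me3 alone on 23.7, 22.5 and 34.8%. H3K36me3 alone was on 2.26, 2.28 and 1.18% of all genes, and neither mark on 29.2, 30.6 and 31.0%. For the 150 genes, neither mark was on 13.3, 25.3 and 34.0%. In iPSCs, H3K4me3 alone, anywhere in the gene window, was thus the most frequent state with 58.7% of the genes, against 34.8% of all genes, and both marks were on 4.67%, against 33.1%.

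**Figure D4:**
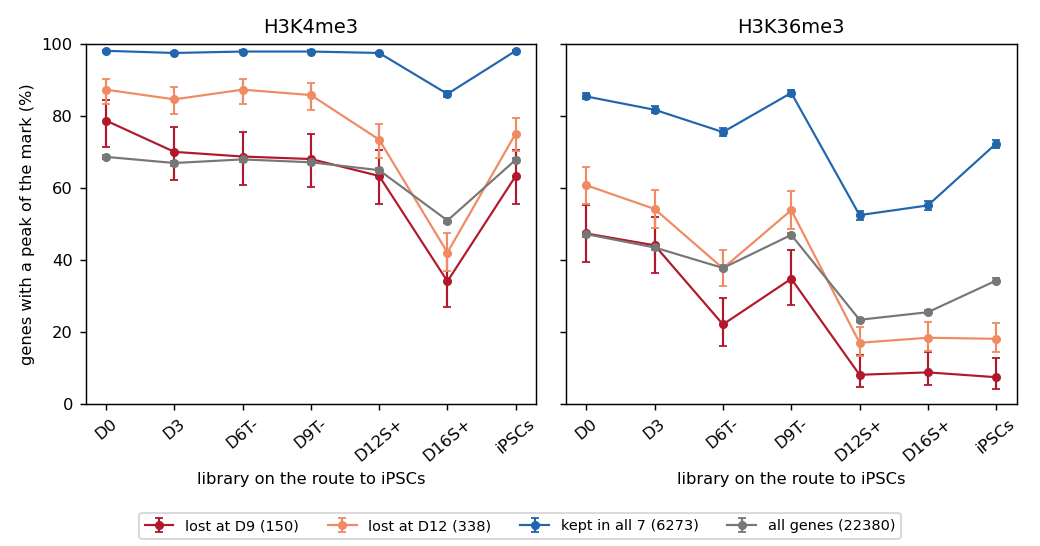
Share of genes (%, error bars: 95% Wilson interval) with an H3K4me3 peak (left) or an H3K36me3 peak (right) in the 7 libraries on the route to iPSCs, for 150 genes lost at D9, 338 lost at D12, 6273 kept genes and all 22380 genes. The genes lost at D9 stay at 68.0% for H3K4me3 in D9T- and 63.3% in iPSCs, while for H3K36me3 they reach 7.33% in iPSCs against 72.3% of kept genes.

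The shares were also taken over the genes with the firmest H3.3 before the loss. Of the 45 genes with a D6T- peak at 2 or more times the D9T- limit, the share bound was 77.8% for D6T+, 60.0% for D9T+, 80.0% for D12S-, 51.1% for D16S- and 26.7% for ESD3, against 62.9, 50.5, 58.1, 38.1 and 22.9% of the other 105. Their H3K4me3 share in iPSCs was 60.0% against 64.8%, and their H3K36me3 share in iPSCs was 8.89% against 6.67%. The 27 genes that also had a D6T- peak overlapping D0 and D3 peaks were bound at 70.4, 55.6, 88.9, 59.3 and 33.3% in the same 5 libraries. The shares of the 45 genes were higher in all 4 unsuccessful fractions, with intervals that overlapped for each (66.2 to 89.1% against 48.5 to 67.1% in D12S-). The split was made on H3.3 peaks of libraries used in the selection, so these shares are a description and not a test.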

How the data were processed

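Reads were mapped to mm9 with STAR, and peaks were called with HOMER findPeaks (histone style) per library against input (versions not given in the sources used here). Per the file headers, the signal of a peak is its normalized tag count per 10 M tags. The deposited fold over input is a ratio, at least 2 for H3.3 and 4 for the marks. Deposited p-values played no part here beyond the authors' own calling. Of 46 samples, 30 had peak lists, and 16 inputs were not analysed on their own. Peak midpoints were assigned here to GENCODE vM1 protein-coding genes by gene identifier (Python 3.11.15, pandas 2.3.3), and gene sizes, overlaps (at least 1 bp) and motifs were computed on mm9. Wilson intervals (95%, statsmodels 0.14.6) cover counting error only. The calling limit is the tag threshold in the header divided by library size. Assignment was tested on simulated peak lists.

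The members and lists were chosen with earlier results of these data known. Named genes were the 10 highest in D6T-, up to 8 bound in all unsuccessful fractions and in ESD3, up to 6 in no unsuccessful fraction, up to 6 per class of H3K4me3 and H3K36me3 course, list members, and 3 on each side of the rule. Genes named beyond these, by role, were chosen after their values were seen. Alternatives changed the window, the peaks, the chromosomes, the gene names and the libraries in the rule. Some genes that this rule names are not reported here.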

Additional observations from a re-analysis of the deposited data

How the results depend on the processing

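No paired analysis was possible because each group had 1 library. The 150 genes became 430 with a fold of at least 4, and 241, 363, 488 and 322 when D3, D6T-, D9T- or iPSCs was left out of the rule, while the other alternatives gave 100 to 209 genes. With a fold of at least 4 for H3.3 and 8 for the marks, shares were 56.3% in D16S- and 38.1% in ESD3, 30.9% for H3K4me3 in iPSCs and 20.2% for H3K36me3 in D0. With equal numbers of top peaks they were 42.0% in D12S-, 35.0% for H3K36me3 in D0 and 14.0% for it in iPSCs, and with scores at or above the median the last was 20.6%. Counting H3K4me3 within 1 kb of a start site gave 59.3% in D0 and 53.3% in iPSCs. Among alternatives chosen after seeing the data, genes with a strong D6T- peak gave 77.8% in D6T+, 80.0% in D12S-, 51.1% in D16S- and 55.6% for H3K36me3 in D0, and genes with D0, D3 and D6T- peaks at one place gave 80.0% in D12S-, 51.1% in D16S-, 33.3% in ESD3 and 68.9% for H3K4me3 in D0. The cause of these differences was not tested. Values elsewhere stayed within the interval of the main share or within 1.5 times the main count. The D9T- library was deeper than D6T- (32.4 against 29.7 M tags, with limits of 5.87 and 6.07 tags per 10 M). It had a smaller share of its tags in H3.3 peaks (14.8 against 19.3%). This share was 6.93% in D12S+ and 4.88% in D16S+. The part of depth and of the tags in peaks in the calls was not tested.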
